A study of Mus musculus with 18 samples.

Results

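The secreted matricellular proteins and the collagen-associated protein Cthrc1 are described here at the RNA level in mouse aorta, through 10 genes taken by name from the 54281 genes of the count table: Cthrc1, Thbs1, Thbs2, Thbs3, Thbs4, Comp, Tnc, Postn, Sparc and Sparcl1. The set was chosen by family membership with results of the same table already known, and Cthrc1 was selected on its rise in HGPS aortas, so its values in the comparisons with HGPS are given as a description without a p. RNA came from the descending aorta, with intima, media and adventitia together, of 18 male mice on the C57BL/6 background. The 6 HGPS mice (64 to 75 d old) carry the label LMNAG609G: by the study's account they are homozygous for a knock-in mutation in the Lmna gene itself, so that every cell that uses this gene can make progerin, a truncated lamin A, with no Cre or tissue-specific promoter. They were compared with 6 wild-type (WT) mice of 2 mo, of which 5 were 62 d and the sixth 95 d old, and with 6 WT mice of 24 mo (609 to 762 d old). Mice received chow and no treatment is recorded for these libraries, and the aged mice came from a commercial supplier.

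Matricellular proteins are secreted into the extracellular matrix, where they bind collagens, growth factors and cell surface receptors and modulate how cells attach and signal, without forming the load-bearing fibers themselves. Thrombospondins 1 and 2 are trimers that bind CD36 and CD47, and thrombospondins 3, 4 and 5 (thrombospondin 5 is Comp, cartilage oligomeric matrix protein) are pentamers best known from muscle, tendon and cartilage. Sparc (osteonectin) binds collagen and takes part in collagen fibril assembly, and Sparcl1 (hevin) is its closest relative. Cthrc1 (collagen triple helix repeat containing 1) is made by activated fibroblasts and arterial cells after vessel injury and acts on Wnt co-receptors.

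RefSeq promoter windows, on build GRCm38.p6, were at hand for 6 of the 10 genes. Windows of 3 genes are shown, for the member that moved in opposite directions in HGPS and in aged WT aortas (Sparc), an abundant member that, like Thbs3, lay lower in aged WT aortas without reaching the fold cut-off (Postn), and the thrombospondin whose counts lay almost wholly in HGPS mice (Thbs4). Each holds the 250 bases before the annotated start, 5′ to 3′ on the strand of the gene: chr11:55420081-55420330 on the minus strand for Sparc, chr3:54360857-54361106 on the plus strand for the nearer of 2 Postn starts, and chr13:92794819-92795068 on the minus strand for Thbs4. Capitals mark matches, on either strand, to any of 6 motifs that were searched. These were the TATA box, spelled TATAAA, which positions the polymerase at many regulated genes, and the GC box, spelled GGGCGG, to which Sp1 binds. The others were the core letters known for AP-1 (TGACTCA), which is the Fos and Jun dimer, for the TEAD partners of the Hippo pathway (GGAATG), for the bone and cartilage regulators of the RUNX family (TGTGGT), and for the SOX family of cartilage and neural regulators (ATTGTT).
Sparc: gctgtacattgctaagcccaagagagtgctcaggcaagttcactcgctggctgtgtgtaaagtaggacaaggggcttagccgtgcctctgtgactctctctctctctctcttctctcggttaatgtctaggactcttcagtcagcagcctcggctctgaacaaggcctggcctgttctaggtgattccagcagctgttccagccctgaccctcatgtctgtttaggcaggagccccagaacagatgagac
Postn: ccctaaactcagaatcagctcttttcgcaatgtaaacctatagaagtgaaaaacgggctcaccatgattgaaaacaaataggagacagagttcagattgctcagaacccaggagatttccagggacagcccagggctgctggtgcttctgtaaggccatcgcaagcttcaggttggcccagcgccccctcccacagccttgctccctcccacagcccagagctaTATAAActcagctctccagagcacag
Thbs4: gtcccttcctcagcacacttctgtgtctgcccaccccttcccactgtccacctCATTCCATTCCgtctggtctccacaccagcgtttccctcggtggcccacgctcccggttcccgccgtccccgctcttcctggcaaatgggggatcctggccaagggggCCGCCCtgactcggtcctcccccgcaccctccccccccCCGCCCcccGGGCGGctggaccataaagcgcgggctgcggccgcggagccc
The Sparc window held none of the 6 motifs, and its RefSeq start lies inside the gene as GENCODE M21 draws it. The Postn window held 1 TATA box beginning 26 bases before the start, and 12.4% of the 32851 promoter windows in the table hold that motif. Thbs4 held 3 GC boxes, a motif present in 32.7% of windows, and 2 overlapping TEAD matches, a motif present in 12.6%. The AP-1, RUNX and SOX motifs, in 4.46%, 14.0% and 9.42% of all windows, had no match in these 3. A match describes the letters only, and no factor was measured.

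The authors deposited estimated read counts, whose totals ran from 12413229 to 30844775 per mouse. Levels are in CPM, with library sizes adjusted by TMM factors. A gene entered the test if 6 or more mice had 10 or more counts, which 15210 did. One edgeR quasi-likelihood fit covered the 3 groups, and adjusted p-values are Benjamini-Hochberg values over all of those genes. A gene was called at a 1.5-fold change with an adjusted p under 0.001, the cut-offs of the study. Nothing in the labels ties mice to a litter. The sample numbers in the column names run from 19 to 34 for HGPS mice 1 to 3 and all 24-mo WT mice and from 41 to 50 for HGPS mice 4 to 6 and all 2-mo WT mice, so the age of WT mice and the number range cannot be told apart. Smooth muscle markers (8 genes such as Myh11 and Acta2, none at 0) were the most abundant marker list in every group, with summed levels of 30509 to 39113 CPM in 2-mo WT, 20142 to 28016 in HGPS and 31413 to 35835 in 24-mo WT mice. Lmna had median levels of 418, 600 and 404 CPM in 2-mo WT, HGPS and 24-mo WT mice, but a gene total does not separate the progerin transcript, so the genotype was not checked by it. In whole aorta, fewer cells of a type and less RNA per cell cannot be told apart.

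Of the 10 genes, 9 passed the count filter, and Thbs4 did not, since only 5 mice reached 10 counts. Between HGPS and 2-mo WT aortas, 2 of the 9 were called, Cthrc1 and Sparc, both higher in HGPS, where 9.50% of all tested genes were called. In the same comparison 4 of the 9 had an adjusted p under 0.05 against 43.2% of all genes, and 2 had groups that did not overlap against 21.9% of all genes. Between 24-mo and 2-mo WT, Sparcl1 was called higher and Sparc lower at 24 mo, against 2.00% of all genes. Here 5 of the 9 had an adjusted p under 0.05, where 11.7% of all genes did, and 5 had groups that did not overlap, where 6.28% did. Between HGPS and 24-mo WT, 3 were called, Cthrc1 and Sparc higher and Sparcl1 lower in HGPS, against 12.1% of all genes. In that comparison 5 of the 9 had an adjusted p under 0.05 (47.3% of all genes) and 4 did not overlap (22.2% of all genes). Cthrc1 is in these counts because of the way it was chosen, also in those by adjusted p and by overlap. Without it, Sparc alone was called in HGPS against 2-mo WT, and Sparc and Sparcl1 in HGPS against 24-mo WT. Each pair of comparisons shares a group of mice. The median log2 fold change over the 9 genes was 0.10, -0.10 and 0.21 in the 3 comparisons, against 0.003, 0.008 and -0.010 over all tested genes.

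**Figure D1:**
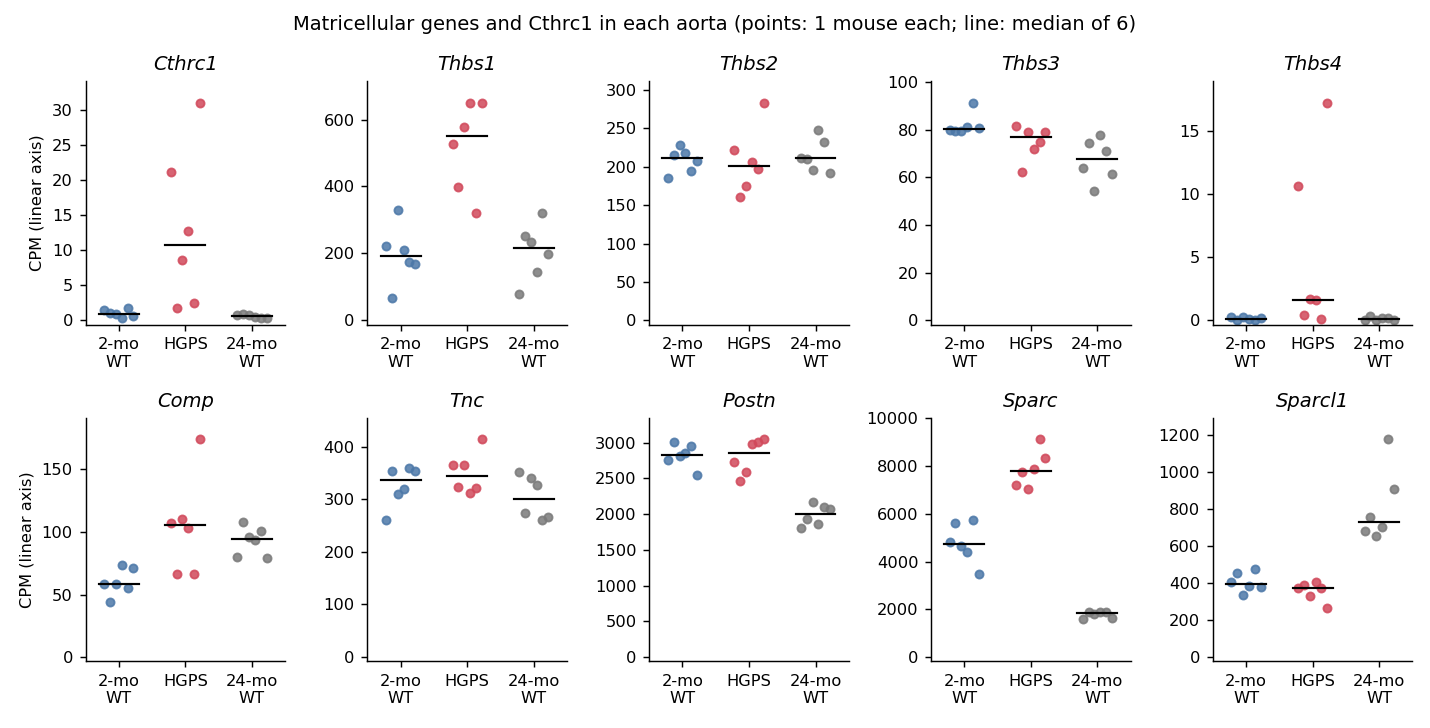
Level of each of the 10 genes in each aorta, in CPM on a linear axis that differs between panels. Each point is 1 mouse and each line the median of 6 mice. Sparc separates all 3 groups, Cthrc1 and Thbs4 are spread widely among HGPS mice, and Sparcl1 and Postn set the 24-mo WT mice apart.

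**Figure D2:**
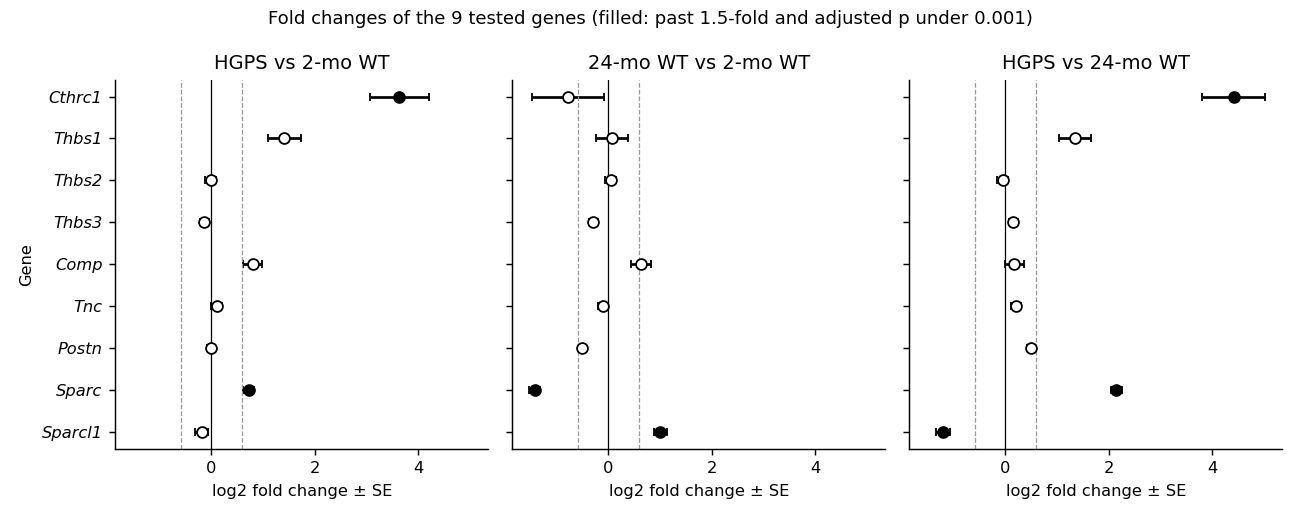
Log2 fold changes with their standard errors for the 9 tested genes in the 3 comparisons (edgeR, 6 mice against 6). Filled circles mark genes past a 1.5-fold change (dashed lines) with an adjusted p under 0.001. Sparc lies to the right of 0 in HGPS and to the left in 24-mo WT when each is set against 2-mo WT.

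Cthrc1 (chr15:39076932-39087121, plus strand) was close to the limit of detection in WT aorta. Its level was 0.406, 0.923 and 1.71 CPM (lowest, median and highest of 6 mice) in 2-mo WT and 0.370, 0.570 and 0.933 CPM in 24-mo WT, from 5 to 32 and from 6 to 15 counts per mouse. In HGPS mice it was 1.76, 10.7 and 31.1 CPM, from 42 to 617 counts. All 6 HGPS mice lay above all 12 WT mice, but the lowest of them only just, and HGPS mice 1 and 6 held 58.8% of the HGPS counts. The log2 fold change was 3.63 (SE 0.57) against 2-mo WT, a 12.4-fold difference and the 23rd largest rise among 15210 genes, and 4.41 (SE 0.61) against 24-mo WT. In WT mice the 24-mo and 2-mo groups overlapped (log2 fold change -0.78, SE 0.69, edgeR adjusted p = 0.530, approximate 95% interval -2.13 to 0.57), so at this depth a change with age was not detectable. By its level Cthrc1 ranked 13271 of the 15210 tested genes in 2-mo WT, 8284 in HGPS and 14311 in 24-mo WT. With scores of brown fat and skeletal muscle markers as covariates, its log2 fold change against 2-mo WT was 2.77 (SE 0.80) and no longer past the cut-offs. That fit called 278 of the 15210 genes, against 1445 without the scores. Brown fat marker sums (10 genes) ran from 477 to 1769 CPM in HGPS, 110 to 624 in 2-mo WT and 123 to 397 in 24-mo WT mice. The skeletal muscle score rested on 4 tested markers of 9 listed. The sums over all 9 were low, at 3.82 to 7.29 CPM in HGPS, 4.27 to 5.52 in 2-mo WT and 6.46 to 9.76 in 24-mo WT mice. In HGPS against 2-mo WT, Tnnt3 (2.00) was called higher and Ckm (-1.08) lower. The part of fat and muscle in the result was not tested beyond that fit.

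Thbs1 (chr2:118111876-118127133, plus strand), the thrombospondin that activates latent TGF-β and is stored in platelets, had the largest difference among the trimeric members. It was at 66.9, 193 and 328 CPM in 2-mo WT, 319, 552 and 650 CPM in HGPS, and 78.9, 215 and 320 CPM in 24-mo WT (lowest, median, highest of 6). Of the HGPS mice, 5 lay above every 2-mo WT mouse and mouse 5 fell within the WT range. The log2 fold change was 1.41 (SE 0.32, edgeR adjusted p = 0.00145) against 2-mo WT and 1.35 (SE 0.32, edgeR adjusted p = 0.00172) against 24-mo WT, both past 1.5-fold but short of the adjusted p of 0.001. Without 2-mo WT mouse 3, the highest of its group, the first became 1.62 with an adjusted p of 0.000709 and was called, and it was also called without 24-mo WT mouse 1, which left its value at 1.41. The difference from 24-mo WT was called without 2-mo WT mouse 2 (1.34). DESeq2, the tool the study used, called Thbs1 in both comparisons. With brown fat and skeletal muscle scores in the fit, the log2 fold change against 2-mo WT was larger, at 2.01 (SE 0.45, edgeR adjusted p = 0.00557), and was not called. That fit called 278 of the 15210 genes, against 1445 without the scores. With age alone the log2 fold change of Thbs1 was 0.07 (SE 0.31, edgeR adjusted p = 0.927, approximate 95% interval -0.55 to 0.68). WT mice varied among themselves by 4.91-fold at 2 mo and 4.06-fold at 24 mo from lowest to highest, against 2.03-fold in HGPS. Platelet marker sums (6 genes) were 25.3 to 46.2 CPM in 2-mo WT, 27.1 to 66.5 in HGPS and 34.6 to 124 in 24-mo WT, and macrophage marker sums (8 genes) were 451 to 697, 851 to 1372 and 397 to 817 CPM. Their part in the difference was not tested.

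Thbs2 (chr17:14665500-14694235, minus strand), the other trimer and an inhibitor of angiogenesis, showed no difference past the test. Its medians were 212 CPM in 2-mo WT, 201 in HGPS and 211 in 24-mo WT, within a range of 160 to 283 CPM over all 18 mice. Its log2 fold changes were -0.01, 0.04 and -0.05 in HGPS against 2-mo WT, 24-mo against 2-mo WT and HGPS against 24-mo WT (edgeR adjusted p = 0.960, 0.847 and 0.712), and the first has an approximate 95% interval of -0.22 to 0.20. In the same mice Thbs1 was 2.66-fold higher in HGPS than in 2-mo WT.

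Thbs3 (chr3:89215180-89226837, plus strand) was at 79.4, 80.3 and 91.3 CPM in 2-mo WT, 62.4, 77.0 and 81.8 in HGPS, and 54.1, 67.6 and 77.9 in 24-mo WT. Every 24-mo WT mouse lay below every 2-mo WT mouse, and the log2 fold change of -0.29 (SE 0.08, edgeR adjusted p = 0.0276) was short of the 1.5-fold cut-off. Against 2-mo WT, HGPS mice overlapped (log2 fold change -0.13, SE 0.08, edgeR adjusted p = 0.207). Thbs3 lies within the span of Mtx1 on the opposite strand, and whether the authors' counting used strand is not given in the sources used here, although the libraries keep it.

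Comp (chr8:70373558-70382066, plus strand) was the member that lay higher in both HGPS and aged WT aortas. It was at 44.2, 58.2 and 74.0 CPM in 2-mo WT, 66.5, 106 and 174 in HGPS, and 79.2, 94.7 and 108 in 24-mo WT. HGPS mice 2 and 5 fell within the 2-mo WT range, whereas every 24-mo WT mouse was above it. The log2 fold change was 0.80 (SE 0.19, edgeR adjusted p = 0.00194) in HGPS and 0.63 (SE 0.19, edgeR adjusted p = 0.0327) in 24-mo WT against 2-mo WT, neither past the cut-offs. The HGPS and 24-mo WT groups overlapped (log2 fold change 0.17, SE 0.18, edgeR adjusted p = 0.464, approximate 95% interval -0.19 to 0.53). Without HGPS mouse 2, or without HGPS mouse 5, Comp was called against 2-mo WT, at a log2 fold change of 0.90 in each case, and DESeq2 called it as well. Without HGPS mouse 6, the highest of its group, the log2 fold change was 0.59 (edgeR adjusted p = 0.00473), and without HGPS mice 1 and 6, a pair chosen after seeing the data, it was 0.53 (edgeR adjusted p = 0.0149).

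Thbs4 (chr13:92751590-92794818, minus strand), a pentamer found around muscle and tendon and in injured tissue, had between 0 and 5 counts in each of the 12 WT mice. The HGPS mice had 189, 11, 36, 52, 2 and 342 counts, which correspond to 0.0836, 1.65 and 17.2 CPM (lowest, median, highest). Mouse 5, with 2 counts, was within the WT range, and mice 1 and 6 together held 531 of the 632 HGPS counts (84.0%). When the filter asked instead for an average of 10 counts per mouse, which admitted Thbs4 through its HGPS mice, its log2 fold change was 5.21 (SE 1.06) against 2-mo WT and 5.30 (SE 1.07) against 24-mo WT, and -0.09 (SE 1.51) between the ages of WT. The size of a fold from so few WT counts depends on the prior count of the fit.

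To set the thrombospondins beside each other, levels were divided by the median length of each gene's coding transcripts (CPM per kb). The 5 genes summed to 105, 138 and 162 CPM per kb in 2-mo WT (lowest, median, highest), 159, 232 and 311 in HGPS and 126, 157 and 187 in 24-mo WT. Thbs1 made up a median of 23.3% of this sum in 2-mo WT (10.9% to 34.8%), 40.5% in HGPS (34.4% to 45.9%) and 24.1% in 24-mo WT (10.7% to 29.2%). Comp made up 29.1%, 30.6% and 41.3%. So by the medians the leading thrombospondin per length was Thbs1 in HGPS and Comp in 24-mo WT, while in 2-mo WT the shares of Comp, Thbs1 and Thbs2 (24.8%) lay close together. HGPS mouse 6 was an exception to this order, with Comp at 119.5 and Thbs1 at 111 CPM per kb. With the longest transcript in place of the median, the share of Comp fell to 20.1%, 21.2% and 30.1% and that of Thbs1 became 27.0%, 46.3% and 29.0%, so the order of Comp and Thbs1 in 2-mo WT depends on the length used, and the lead of Comp in 24-mo WT is small with the longest transcript. No pair of the 10 genes shared a stretch of 31 bases in their transcripts.

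**Figure D3:**
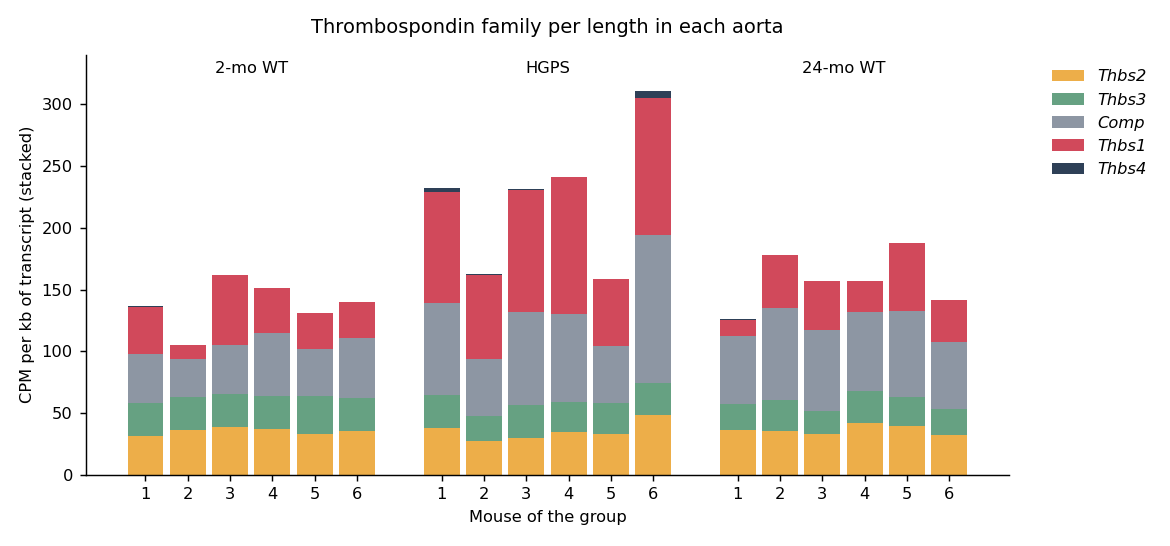
Stacked levels of the 5 thrombospondin genes in each aorta, in CPM per kb of the median coding transcript, for 6 mice in each group. The red Thbs1 section is taller in 5 of the 6 HGPS mice than in any WT mouse, the gray Comp section is taller in 24-mo WT and in 4 HGPS mice than in any 2-mo WT mouse, and Thbs4 has a section of visible height in HGPS mice 1 and 6.

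The HGPS mice were not alike in these genes. Mice 2 and 5 were the lowest pair for Cthrc1, Thbs1, Thbs4 and Comp, and mouse 6 was the highest for all 4 and also for Thbs2, Tnc and Postn. From lowest to highest HGPS mouse, the level spanned 17.6-fold for Cthrc1, 2.62-fold for Comp and 2.03-fold for Thbs1, but 1.29-fold for Sparc and 1.24-fold for Postn. For Sparc the order was another one, with mouse 5 the highest and mouse 3 the lowest. Mice 2 and 5 were 65 and 64 d old, the youngest of the group, mouse 6 was 66 d and mouse 3 was 75 d old. Mouse 6 also had the highest summed white fat markers (4014 CPM against 1452 to 2913 in the others), the highest macrophage markers (1372 CPM) and the lowest smooth muscle markers (20142 CPM) of the HGPS mice. Mice 2 and 5 did not share a marker profile: mouse 2 had the highest brown fat sum (1769 CPM), and mouse 5 had the highest smooth muscle sum (28016 CPM). The part of cell content in this spread was not tested.

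**Figure D4:**
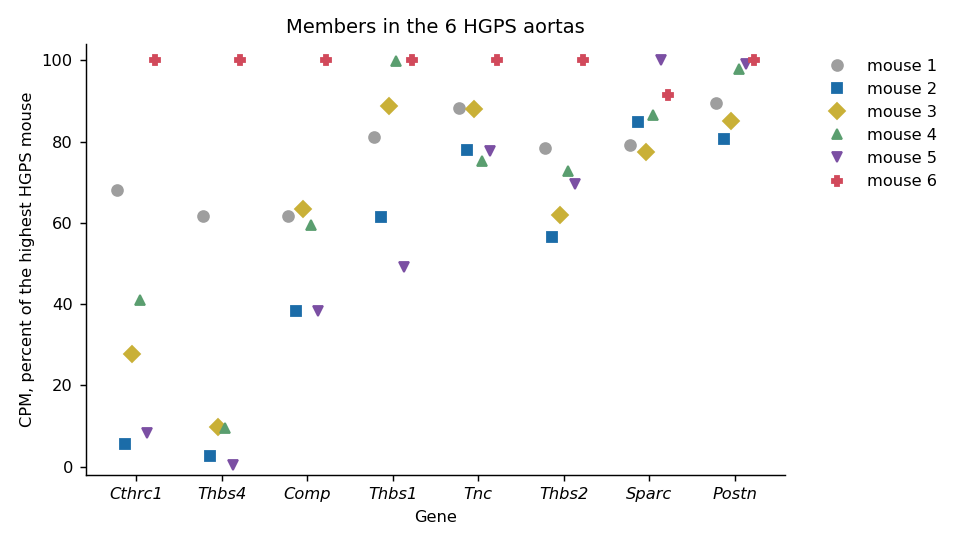
Levels of 8 members in the 6 HGPS aortas, each as a percent of the highest HGPS mouse for that gene. Mice 2 and 5 lie at the bottom for Cthrc1, Thbs4, Comp and Thbs1, whereas the 6 mice lie close together for Sparc and Postn.

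Tnc (chr4:63959785-64047015, minus strand), tenascin-C, an anti-adhesive glycoprotein of remodelling vessel wall, was at 261, 337 and 358 CPM in 2-mo WT, 311, 343 and 413 in HGPS, and 260, 301 and 352 in 24-mo WT. The groups overlapped throughout. The log2 fold change was 0.10 (SE 0.10, edgeR adjusted p = 0.434, approximate 95% interval -0.09 to 0.29) in HGPS and -0.10 (SE 0.10, edgeR adjusted p = 0.552) in 24-mo WT against 2-mo WT, and 0.21 (SE 0.10, edgeR adjusted p = 0.0900) between HGPS and 24-mo WT.

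Postn (chr3:54361109-54391037, plus strand), periostin, which binds collagen I and integrins, was far more abundant and ranked 24th by level in both 2-mo groups. It was at 2542, 2835 and 3010 CPM in 2-mo WT, 2458, 2854 and 3046 in HGPS, and 1804, 2001 and 2166 in 24-mo WT. The 2-mo groups covered nearly the same range (log2 fold change -0.01, SE 0.07, edgeR adjusted p = 0.928, approximate 95% interval -0.14 to 0.12). All 24-mo WT mice lay below all 12 younger mice. The log2 fold change with age was -0.50 (SE 0.07, edgeR adjusted p = 5.20e-05), and that of HGPS against 24-mo WT was 0.49 (SE 0.07, edgeR adjusted p = 1.12e-05), both short of 1.5-fold.

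Sparc (chr11:55394500-55423183, minus strand) was the most abundant member and the only one called in all 3 comparisons. Its level was 3496, 4736 and 5750 CPM in 2-mo WT, 7049, 7806 and 9110 in HGPS, and 1600, 1836 and 1906 in 24-mo WT, with no overlap between any pair of groups. It rose in HGPS by a log2 fold change of 0.72 (SE 0.10, edgeR adjusted p = 1.93e-05), 1.65-fold, and fell by 1.43 on the log2 scale in 24-mo WT (SE 0.10, edgeR adjusted p = 2.13e-08), 2.69-fold, each against the same 2-mo WT mice. Between HGPS and 24-mo WT the difference was 4.43-fold (log2 fold change 2.15, SE 0.10, edgeR adjusted p = 3.1e-11). Sparc was the 17th most abundant of the tested genes in 2-mo WT, the 6th in HGPS and the 45th in 24-mo WT, and took a median of 0.482%, 0.793% and 0.184% of all counts. Within the sample numbers 41 to 50, HGPS mice 4 to 6 against the 2-mo WT mice gave 0.81 with an adjusted p of 0.00112, just short of a call, and within 19 to 34, HGPS mice 1 to 3 against the 24-mo WT mice gave 2.05, which was called. With brown fat and skeletal muscle scores in the fit, the HGPS rise was 0.67 with an adjusted p of 0.00570 and was not called. Of all 15210 tested genes, 278 were called in that fit, against 1445 without the scores. Fibroblasts are among the cells that make Sparc, and summed fibroblast markers (8 genes such as Pdgfra and Dcn, none at 0) were lower in HGPS, at 2259 to 3002 CPM, than in 2-mo WT, at 3506 to 3990 CPM, with 2919 to 3944 CPM in 24-mo WT. Dcn was the most abundant of the 8, at 1827 ± 85.8 CPM in 2-mo WT and 1299 ± 162 CPM in HGPS (SD, n = 6 each). In HGPS against 2-mo WT, 3 of the 8 were called, all lower, where 9.50% of all tested genes were called. At an unadjusted p under 0.05 (edgeR), 6 were lower, and Lum (log2 fold change 0.20) and Dpt (-0.10) were not among them. The part of fibroblasts in the Sparc values was not tested.

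Sparcl1 (chr5:104079111-104113733, minus strand) moved the other way with age. It was at 336, 394 and 475 CPM in 2-mo WT, 268, 373 and 403 in HGPS, and 655, 732 and 1176 in 24-mo WT. All 24-mo WT mice lay above all 12 younger mice, and HGPS and 2-mo WT mice overlapped. The log2 fold change with age was 1.01 (SE 0.13, edgeR adjusted p = 4.08e-05), 2.01-fold. It was -0.19 (SE 0.13, edgeR adjusted p = 0.266, approximate 95% interval -0.45 to 0.07) in HGPS against 2-mo WT and -1.20 (SE 0.13, edgeR adjusted p = 1.05e-06) in HGPS against 24-mo WT. Summed pericyte markers (8 genes such as Rgs5 and Pdgfrb, none at 0 in all mice) were also apart by group, at 2856 to 3387 CPM in 2-mo WT, 1730 to 2216 in HGPS and 5055 to 6597 in 24-mo WT. Most of the rise of this sum with age lay in Rgs5, at 1267 ± 181 CPM in 2-mo WT and 3577 ± 833 CPM in 24-mo WT (SD, n = 6 each), the single marker called among the 7 tested. The median log2 fold change with age over those 7 was 0.30, and Pdgfrb was at -0.11. The part of pericytes in the Sparcl1 change was not tested. With brown fat and skeletal muscle scores in the fit, the change with age was 1.09 (edgeR adjusted p = 0.00150). The difference of HGPS from 24-mo WT was then -1.18 (edgeR adjusted p = 0.00131), and neither was called. Of all 15210 tested genes, that fit called 110 and 409 in these comparisons, against 304 and 1845 without the scores.

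The count ratio of Sparc to Sparcl1, which needs no scaling between libraries, was 9.22 to 13.8 in 2-mo WT (mean 11.8 ± 1.5, SD, n = 6), 19.5 to 31.1 in HGPS (mean 22.6 ± 4.53, SD, n = 6) and 1.62 to 2.75 in 24-mo WT (mean 2.27 ± 0.465, SD, n = 6). No HGPS mouse and no 24-mo WT mouse fell within the range of another group. In HGPS the ratio moved mainly through Sparc, and in 24-mo WT through both genes. All 10 members together took a median of 0.895% of the counts in 2-mo WT, 1.24% in HGPS and 0.550% in 24-mo WT.

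**Figure D5:**
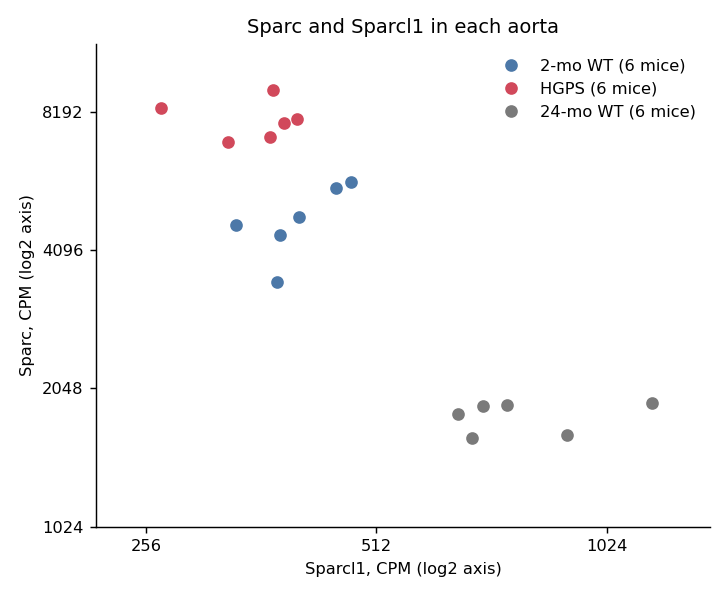
Sparc against Sparcl1 in each aorta, both in CPM on log2 axes, 6 mice for each group. The HGPS mice lie above the 2-mo WT mice at similar Sparcl1, and the 24-mo WT mice lie below and to the right.

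Among 20 further matricellular genes, 16 were tested. In HGPS against 2-mo WT, 6 of these were called, 2 higher and 4 lower, where 9.50% of all tested genes were called. The list's median log2 fold change was 0.20, against 0.003 for all genes. Higher were Spp1 (osteopontin, an integrin ligand made by macrophages among other cells), at 26.5 ± 11.1 CPM in HGPS (SD, n = 6) against 0.758 ± 0.311 in 2-mo WT (SD, n = 6), and Ccn4 (log2 fold change 0.85). Lower were Tgfbi (-1.13), Tnxb (tenascin-X, which spaces collagen fibrils, -0.96), Smoc2 (a Sparc-related calcium-binding protein, -0.73) and Ecm1 (-0.68). In 24-mo against 2-mo WT, where 2.00% of all genes were called, 3 were higher and 1 lower (median log2 fold change 0.17 against 0.008). Tnr (tenascin-R, known from the nervous system) was at 0.249 ± 0.206 CPM in 2-mo WT and 11.9 ± 3.06 CPM in 24-mo WT (SD, n = 6 each), a log2 fold change of 5.41 (SE 0.37, edgeR adjusted p = 1.3e-08). Its 24-mo WT values, 8.61 to 16.4 CPM, were far above the 2-mo WT values of 0 to 0.517 CPM and the HGPS values of 0.139 to 0.630 CPM. Spp1 (2.69) and Ccn3 (0.67) were the other genes higher at 24 mo, and Fstl1, a further Sparc relative, was lower (-0.68). Between HGPS and 24-mo WT, where 12.1% of all genes were called, 9 of these were (median log2 fold change -0.22 against -0.010). Spp1 (2.42), Ccn5 (0.89), Ccn4 (0.82) and Fstl1 (0.76) were higher in HGPS. Tnr (-4.82), Tnxb (-1.13), Ecm1 (-0.99), Tgfbi (-0.88) and Smoc2 (-0.85) were lower.

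Of 25 receptors and binding partners of these proteins, 24 were tested. In HGPS against 2-mo WT, where 9.50% of all genes were called, 3 were called higher and 4 lower (median log2 fold change 0.04 against 0.003 over all genes). The higher ones were Lrp8 (a lipoprotein receptor to which thrombospondin 1 binds, 1.78), Cd36 (1.73) and the heparan sulfate proteoglycan Sdc1 (0.63). Cd36, the receptor of thrombospondins that endothelial cells, macrophages and fat cells carry, was at 105 ± 55.1 CPM in 2-mo WT and 350.0 ± 141 CPM in HGPS (SD, n = 6 each), and summed white fat markers were 1085 to 1872 CPM in 2-mo WT and 1452 to 4014 in HGPS. Of the 8 white fat markers, 1 was called, Fabp4, which was higher in HGPS (1.97). At an unadjusted p under 0.05 (edgeR), 6 were higher and 1 lower, and the list's median log2 fold change was 1.52. The lower one, Plin4, was the most abundant of the 8 in 2-mo WT, at 801 ± 49.3 CPM there and 585 ± 89.9 CPM in HGPS (SD, n = 6 each). The part of fat in the Cd36 change was not tested. Lower were the integrin subunits Itga8 (-0.93), Itga9 (-0.86), both of which pair with β1 to bind tenascin-C among other ligands, and Itgb3 (-0.68), and Cacna2d1 (-0.83), the α2δ calcium channel subunit to which thrombospondins bind in neurons. Sdc1, Itgb3 and Cacna2d1 were named here after their values were seen, to complete the counts. In 24-mo against 2-mo WT, where 2.00% of all genes were called, the single called gene was Cacna2d3 (2.37). In HGPS against 24-mo WT, where 12.1% were, 5 were higher and 4 lower, led by Cacna2d3 (-2.59), Lrp8 (1.22), Sdc1 (1.00) and Cacna2d1 (-0.93).

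For Cthrc1, all 15 genes of a list of Wnt ligands, receptors and planar polarity partners were tested. In HGPS against 2-mo WT, where edgeR called 9.50% of all genes, it called none of these higher and 2 lower. DESeq2 also called none higher. At an unadjusted p under 0.05 in edgeR, 2 were higher and 9 lower. The called genes were Wnt5a (from 44.2 ± 4.76 to 23.4 ± 3.34 CPM, SD, n = 6 each, log2 fold change -0.92) and Prickle1 (-0.70). The median over the list was -0.26 against 0.003 over all genes. Between the ages of WT, where edgeR called 2.00% of all genes, neither edgeR nor DESeq2 called any (1 was higher and 7 lower at an unadjusted p under 0.05). Wnt5a (-0.72) and Prickle2 (-0.60) were lower in HGPS than in 24-mo WT, where 12.1% of all genes were called.

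Since Sparc, Postn, Comp and Cthrc1 act on collagen, 13 fibrillar collagens and assembly genes were set beside them. In 24-mo against 2-mo WT, 2.00% of all genes were called, and Sparc and Postn were lower. The list's median log2 fold change there was -0.80, against 0.008 over all genes, and 6 of the 13 were called lower and 1 higher. The lower ones were led by Col3a1 (-1.66), Pcolce2 (an enhancer of procollagen cleavage, -1.24), Col5a2 (-0.98) and Col1a2 (-0.95). Lox was also lower (-0.94), at 438 ± 54.7 CPM in 2-mo WT and 229 ± 16.4 CPM in 24-mo WT (SD, n = 6 each), and fibronectin (Fn1, 0.84) was higher. Both Lox and Fn1 were named here after their values were seen. The paper itself reported little change of Lox mRNA between these ages. In HGPS against 2-mo WT, 9.50% of all genes were called, Sparc was higher and Postn was at a similar level. Of the 13, 2 were higher, the crosslinking enzyme Lox (0.85) and Col11a1 (3.86, SE 0.73). Col11a1 ran from 0.961 to 21.7 CPM in HGPS mice. In WT it was close to the limit of detection, at 0.230 to 0.652 CPM at 2 mo and 0.0540 to 0.527 CPM at 24 mo. Neither edgeR nor DESeq2 called any lower, with 2 lower at an unadjusted p under 0.05 (median 0.10 against 0.003). Between HGPS and 24-mo WT, where 12.1% of all genes were called, 6 were higher and 1 lower. These were led by Col11a1 (4.65, SE 0.79), Lox (1.79), Pcolce2 (1.45) and Col3a1 (1.27).

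Genes of tendon and cartilage, the tissues in which Comp, Thbs4 and Thbs3 are best known, were called in both directions. Of 15, 13 were tested. Their median log2 fold changes in HGPS against 2-mo WT, 24-mo against 2-mo WT and HGPS against 24-mo WT were 0.55, 0.30 and 0.60. Over all genes these medians were 0.003, 0.008 and -0.010, and 9.50%, 2.00% and 12.1% of all genes were called. In HGPS against 2-mo WT, 7 were higher and 3 lower at an unadjusted p under 0.05 (edgeR). Called higher were Chad (from 0.219 ± 0.0724 to 0.649 ± 0.127 CPM, SD, n = 6 each, log2 fold change 1.52) and the tendon transcription factor Scx (from 4.74 ± 1.37 to 11.4 ± 2.98 CPM, SD, n = 6 each, log2 fold change 1.25). Hapln1 (-0.88) was called lower. In 24-mo against 2-mo WT, Mkx (2.27) and Hapln1 (1.58) were higher and Cilp2 (-2.42) was lower. Between HGPS and 24-mo WT, Cilp2 (2.45) and Cilp (1.65) were higher in HGPS and Mkx (-3.16) and Hapln1 (-2.46) lower.

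Genes that varied with a member from mouse to mouse were sought among the 10708 tested genes that averaged 100 counts or more per mouse, by the Pearson r of log2 CPM deviations from the group means over 18 mice. These values are descriptions, since the mice share libraries and scaling with every gene compared. For Cthrc1 they were C1qtnf3 (0.86), Ndst2 (0.79) and Fam117a (0.77), and the Spearman rho of C1qtnf3 was lower, at 0.66. For Thbs1 they were the Wnt antagonist Frzb (0.83), Gm48898 (0.82) and the fibulin Efemp1 (0.81), and for Comp Srpx2 (0.80), Col8a1 (0.78) and Tmeff2 (0.78). For Postn they were Glb1 (0.84), Tm7sf3 (0.81) and Dtna (0.81), and for Tnc Gm36976 (0.79), Capn15 (0.78) and the laminin receptor subunit Itga7 (0.77). No member was among the 3 genes most like any of these 5.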

How the data were processed

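Aortic RNA was sequenced as stranded, ribosomal RNA-depleted, paired-end libraries. Per the study's methods, the authors ran salmon on GENCODE M23 (GRCm38.p6), brought its estimated counts to gene level by tximport, and deposited un-normalized whole numbers. Their own tests used DESeq2. The submitters' processing notes also name Bowtie 0.12.2, with no role. The 10 members, the gene lists and the rule for named genes were chosen with earlier results of these data known. The rule named all members, every called further matricellular gene and the 3 genes most like each of 5 members. Of the receptor, Wnt, collagen and tendon lists, it named up to 4 called genes for each comparison by size of fold change. Called genes of the cell cycle and marker lists were not named by this rule.

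Symbols, coordinates and lengths came from GENCODE M21, which held 54107 of the identifiers. Genes reaching 10 counts in 6 or more mice entered edgeR 4.0.16 (R 4.3.3, TMM, glmQLFit and glmQLFTest, 15 residual degrees of freedom). Standard errors were derived from the F statistic (log2 fold change over its square root), and approximate 95% intervals from them. Log2 CPM had a prior count of 2. A marker sum adds the CPM of all listed markers. The fit was tested on simulated data. Totals per mouse were 12413229 to 30844775 counts. The alternatives were DESeq2 1.42.0, other normalizations, filters and cut-offs, the replicate block, marker covariates, fewer groups and each mouse left out. No 2 mice of a group agreed within sampling noise (chi-square over its degrees of freedom, 7.64 to 93.6 in 45 pairs). Immunostaining, mechanics and microRNA were not analysed here.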

Additional observations from a re-analysis of the deposited data

Results flagged for a closer look

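Of 30 groups of 6 mice (10 genes in 3 groups), 1 held a mouse far from the other 5: in 2-mo WT, mouse 5 had 91.3 CPM of Thbs3, against 81.2 CPM for the next mouse. The gap was 0.845 of the group's whole range, above the 95% critical value of Dixon's test for 6 samples. About 1 group in 20 passes this limit by chance. This mouse widened the difference between 2-mo and 24-mo WT, but the lowest 2-mo WT mouse, at 79.4 CPM, was above all 24-mo WT mice without it.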

How the results depend on the processing

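The call for Sparc in 24-mo against 2-mo WT and in HGPS against 24-mo WT held under every alternative run. The count of members called moved by more than 1.5 times under these settings. In HGPS against 2-mo WT it went from 2 to 4 with DESeq2 or with an adjusted p under 0.05 and no minimum fold. It went to 5 of 10 with no count filter, a fit that admits Thbs4 and counts it among the 5. The counts of Thbs4 lay almost wholly in HGPS mice. Within sample numbers 41 to 50 (a fit chosen after seeing the data) the count of members called went to 1. With brown fat and skeletal muscle scores as covariates the count was 0 of 9 (edgeR, 4 at an unadjusted p under 0.05). Over all genes, 1445 of 15210 were called in the main fit, 1923 with DESeq2 and 278 with the covariates. Having no count filter gave 1491 of 28882, and sample numbers 41 to 50 gave 545 of 14094. With those covariates the 2-mo and 24-mo WT comparison and that of HGPS and 24-mo WT each had 1 call, Sparc. Of all 15210 genes, 110 and 409 were called there, against 304 and 1845 without the covariates. With an adjusted p under 0.05 both had 5, and with no count filter the latter had 5, again with Thbs4 among them. Log2 fold changes near 0 changed sign. Between HGPS and 2-mo WT, Thbs2 became 0.039 with the covariates, 0.13 within sample numbers 41 to 50 and 0.095 without HGPS mice 2 and 5, Tnc became -0.021 with the covariates, and Postn became 0.071, 0.092 and 0.013 under the same 3 settings as Thbs2. With the covariates, Thbs2 became -0.083 in 24-mo against 2-mo WT and 0.12 in HGPS against 24-mo WT, where it was 0.050 without HGPS mice 2 and 5, and Comp became -0.094 without HGPS mice 1 and 6. Leaving out single mice gave -0.12 to 0.058 for Thbs2 and -0.038 to 0.028 for Postn in HGPS against 2-mo WT, -0.11 to 0.28 for Thbs1 in 24-mo against 2-mo WT, and -0.17 to 0.014 for Thbs2 and -0.035 to 0.28 for Comp in HGPS against 24-mo WT. Of 747 fold changes under alternatives, 24 changed sign, 6 lost a call and 12 gained one, and of 1462 list counts 162 moved. The cause was not tested. Same-numbered mice did not pair (correlations of deviations -0.162 to 0.172 over 18 pairs, 2 above 0.1, and 4 mice best with their own number). With the replicate number as a block, the members called were 2, 2 and 3, as without it, and no call changed. Cthrc1 in WT and Thbs4 rest on few counts, which limits their fold changes.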
